A study of Mus musculus with 26 samples.

Results

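The 10 genes described here encode the main steps of fatty acid synthesis in liver: the transcription factors Srebf1 and Mlxipl, the enzymes Acly, Acaca, Fasn, Elovl6, Scd1 and Me1, and the lipid-associated proteins Thrsp and Pnpla3. They were taken by gene symbol from a read count table of mouse liver RNA-seq, in which all 10 were found among 47643 genes. The series holds 26 libraries in 10 groups, and each of 5 treated groups has its own control group.

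Fatty acid synthesis turns surplus sugar into fat after a meal. Insulin raises the sterol-response factor encoded by Srebf1, and sugar metabolites activate the carbohydrate-response factor ChREBP encoded by Mlxipl; both factors then switch on the enzymes. Acly (ATP citrate lyase) makes acetyl-CoA from citrate, Acaca (acetyl-CoA carboxylase) carboxylates it to malonyl-CoA, Fasn (fatty acid synthase) builds palmitate, Elovl6 elongates it and Scd1 (stearoyl-CoA desaturase) puts in the double bond. Me1 (malic enzyme) supplies NADPH, Thrsp is a small lipogenic protein named for its thyroid hormone response, and Pnpla3 is a lipid droplet protein that responds to feeding. FXR, the bile acid receptor encoded by Nr1h4, induces the repressor SHP, encoded by Nr0b2, and both proteins are known to restrain bile acid and lipid synthesis.

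The first comparison set 2 livers of wild-type C57BL/6J mice given TCPOBOP, an agonist of the nuclear receptor CAR, against 2 given corn oil, all at 8 weeks of age with free access to food. The sample titles place TCPOBOP 36 h before collection whereas the source names say 6 h. The second set 3 livers of Fxr-/- Shp-/- mice, which lack both genes, against 3 wild-type livers, at 12 weeks, C57BL/6J and fed freely. The third set 3 livers 48 h after partial hepatectomy against 3 sham livers labelled 0 h, in freely fed C3H/HeN mice of 8 to 10 weeks, with no sham group at 48 h, so that time after surgery and removal of tissue cannot be told apart. The fourth used isolated hepatocytes, not whole liver, of 16-week C57BL/6J wild-type mice after a 10 h fast, 2 samples from mice on a 60% high fat diet and 2 from mice on chow. The fifth set 3 livers of mice on a cholic acid diet against 3 on chow, at 10 to 12 weeks after an 8 to 10 h fast. Both of these groups carried floxed Fxr and Shp alleles (fl/fl Fxr fl/fl Shp) on C57BL/6J, and the labels name no Cre. Cholic acid is a bile acid, and feeding it raises the bile acid load of the liver. The labels number the samples but do not say that each is a separate animal, so the p-values measure the spread between these samples. In whole liver, a change in the share of a cell type and a change in RNA per cell cannot be told apart.

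Gene counts per library ranged from 13949059 to 70367874, and the hepatocyte samples were the deepest. Nr0b2 fell by 4.03 on the log2 scale and Nr1h4 fell by 1.27 in the Fxr-/- Shp-/- livers, where Nr1h4 still had 52.3 to 61.0 CPM (read counts scaled to a common library total). The library labelled corn oil 1 went against its label: Cyp2b10, a CAR target gene, had 3706 CPM there but 9.94 in corn oil 2, with 3430.5 and 2988 in the TCPOBOP livers. Hepatocyte markers were abundant in every group, with summed levels of 44464 to 126115 CPM over 6 genes. In the hepatocyte samples Kupffer cell markers summed to 31.1 to 32.8 CPM on chow and 56.6 to 62.0 on the high fat diet, against 126 to 292 in wild-type liver. Endothelial markers summed to 38.0 to 40.1 CPM on chow, and on the high fat diet, at 95.4 to 98.3, they lay within the range of wild-type liver (58.1 to 108). Clock genes, picked after the libraries had been compared, differed between libraries of single groups. Dbp, a clock output gene, had a level of 0.278 CPM in corn oil 1, as labelled, against 68.2 in corn oil 2. It was at 4.59 CPM in hepatectomy replicate 3, against 86.6 and 70.0 in replicates 1 and 2. Floxed chow replicate 3 stood at 101 CPM, and floxed chow replicates 1 and 2 at 4.30 and 10.6. Dbp also differed in floxed cholic acid replicate 2, at 20.1 CPM against 2.47 and 1.10 in replicates 1 and 3. In Fxr-/- Shp-/- replicate 3 it was at 22.8 CPM, against 5.45 and 8.82 in replicates 1 and 2. Several of these libraries return below.

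Upstream sequences are shown for 4 of the genes to set genes with the larger changes below (Fasn and Elovl6) beside genes with the smaller ones (Srebf1 and Acly), with the boxes bound by NF-Y and Sp1, known partners of SREBP. The RefSeq table of mouse promoters (GRCm38.p6) had entries for 9 of the 10 genes and none for Scd1. Each line gives 150 bases upstream of a start site or of the first annotated exon, 5′ to 3′ on the gene's own strand, with capitals for matches to the NF-Y box CCAAT or the Sp1 box GGGCGG on either strand.
Fasn: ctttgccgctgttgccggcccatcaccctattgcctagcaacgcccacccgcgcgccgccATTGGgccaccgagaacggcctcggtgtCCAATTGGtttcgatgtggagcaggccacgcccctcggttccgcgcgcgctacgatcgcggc
Srebf1: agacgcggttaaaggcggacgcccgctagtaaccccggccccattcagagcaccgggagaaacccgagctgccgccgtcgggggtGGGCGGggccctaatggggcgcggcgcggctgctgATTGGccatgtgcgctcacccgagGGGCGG
Acly: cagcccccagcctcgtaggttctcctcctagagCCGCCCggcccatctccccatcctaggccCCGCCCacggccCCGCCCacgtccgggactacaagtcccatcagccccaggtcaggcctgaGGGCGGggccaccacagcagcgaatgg
Elovl6: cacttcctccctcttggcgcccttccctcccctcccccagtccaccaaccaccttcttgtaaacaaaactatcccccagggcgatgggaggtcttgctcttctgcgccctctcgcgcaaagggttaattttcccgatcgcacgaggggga
The Fasn stretch lies at chr11:120824548-120824697, the Srebf1 stretch at chr11:60210472-60210621 (the start site farthest downstream of the 3 listed) and the Acly stretch at chr11:100528001-100528150, all on the minus strand, and the Elovl6 stretch at chr3:129532205-129532354 on the plus strand. In these stretches Fasn held 3 NF-Y boxes, the last pair of which overlap, Srebf1 1 NF-Y box and 2 Sp1 boxes, Acly 4 Sp1 boxes, and Elovl6 neither. The other Srebf1 start sites differed. The one farthest upstream had only an NF-Y box starting at -166, and the middle one only Sp1 boxes, starting at -36 and -14. CCAAT was present in 33.8% and GGGCGG in 32.7% of all 32851 promoters in the table, counted over 250 upstream bases. The E-box CACGTG (6.02% of promoters) and the sterol element TCACNCCA (3.67%) matched in the upstream bases of 1 gene each among the 9, which was Mlxipl in both cases, at different start sites. A match is a description of letters and does not show that a factor binds.

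Levels spanned a wide range between groups. Sham livers had the highest group mean for 9 of the 10 genes and the freely fed wild-type livers the lowest for 8 of the 10, across groups that differ in strain, age, feeding and tissue. Fasn averaged 1452 ± 109 CPM (SD, n = 3) in sham livers and 45.0 ± 2.78 (SD, n = 3) in wild-type livers. Between these came corn oil at 705 ± 134 (n = 2), hepatectomy at 492 ± 188 (n = 3), Fxr-/- Shp-/- at 321 ± 52.4 (n = 3), TCPOBOP at 311 ± 14.9 (n = 2), chow hepatocytes at 265 ± 56.1 (n = 2), floxed chow at 133 ± 44.4 (n = 3), floxed cholic acid at 126 ± 54.2 (n = 3) and high fat hepatocytes at 112 ± 0.349 (n = 2). Neighbours in that order overlapped in their libraries except sham and corn oil, chow hepatocytes and floxed chow, and high fat hepatocytes and wild type. Among the 9 genes never at 0, Thrsp had the highest ratio between its highest and lowest library (142-fold, 16.2 to 2299.8 CPM) and Me1 the lowest (6.35-fold, 68.0 to 432 CPM). Per kilobase of exon, Scd1 was the most abundant of the 10 in sham livers at 3268 CPM per kb, ahead of Thrsp at 963 and Fasn at 133. Pnpla3 was the scarcest, at 4.54 CPM per kb there, and its counts were 0 in 3 of the 26 libraries and 3 or fewer in 7.

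**Figure D1:**
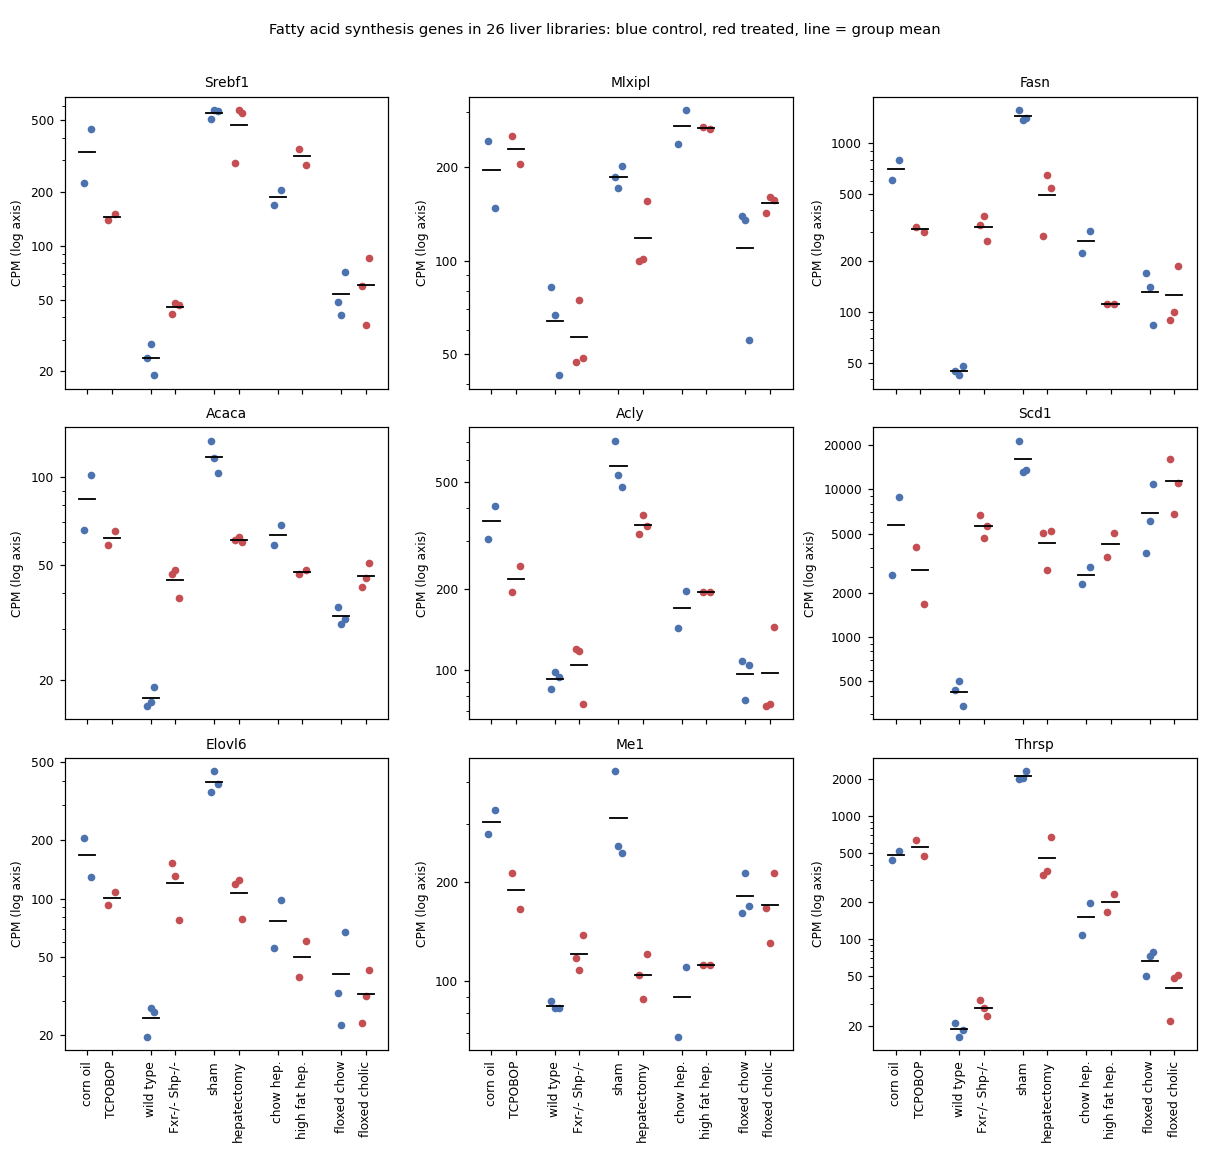
CPM (log axis) of 9 of the genes in each of 26 libraries by group; points are libraries, blue for controls and red for treated groups, and lines are group means. Pnpla3 is left out because it is at 0 in 3 libraries; Fasn reads 42.3 to 47.8 CPM in wild-type livers, below all 3 Fxr-/- Shp-/- livers.

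Loss of FXR and SHP came with higher RNA for most of the pathway: 7 of the 9 genes tested rose, from 1.45-fold for Me1 to 13.4-fold for Scd1, and none fell. Across all 13473 genes tested in this comparison, 40.4% passed in either direction, and 2823 genes rose. The median change of the 9 genes was 0.95 on the log2 scale, against -0.01 over all genes tested. Changes are edgeR log2 fold changes with their standard error (SE), and a gene rose or fell where its Benjamini-Hochberg adjusted p was under 0.05.

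Scd1, the desaturase, stood at 439, 502 and 341 CPM in wild-type livers and at 6662, 4673 and 5649 in Fxr-/- Shp-/- livers. The lowest mutant library was above every wild-type library by a wide margin, and Scd1 rose by 3.74 ± 0.21 (log2, SE; adjusted p = 4.8e-06). The wild-type mean for Scd1, 427 CPM, was the lowest of all groups, with chow hepatocytes next at 2633. The mutant mean of 5661 lay between those of corn oil (5740) and hepatectomy (4357). Fasn went from 44.8, 42.3 and 47.8 CPM to 329, 369 and 265, a rise of 2.85 ± 0.14 (7.21-fold; adjusted p = 2.35e-06). No library of one genotype overlapped with the other for either gene. Elovl6, which lengthens palmitate to stearate, had 19.6, 27.4 and 26.3 CPM in wild type and 153, 131 and 77.9 in the mutants. It rose by 2.32 ± 0.25 (adjusted p = 0.000175), and mutant replicate 3 was the lowest of its group. Acaca, whose enzyme makes malonyl-CoA for Fasn, rose by 1.36 ± 0.12 (adjusted p = 5.17e-05), from 16.3, 16.9 and 18.9 CPM to 46.4, 48.1 and 38.4.

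The regulators moved less. Srebf1 rose by 0.95 ± 0.15 (1.93-fold; adjusted p = 0.00135), from 23.6, 28.5 and 18.9 CPM to 41.4, 48.0 and 46.7, with no overlap. Mlxipl had 82.4, 67.0 and 42.7 CPM in wild type and 47.2, 74.7 and 48.7 in the mutants. These groups overlapped, and its change was -0.16 ± 0.25 (adjusted p = 0.64). Thrsp rose by 0.60 ± 0.14 (adjusted p = 0.00881) and Me1 by 0.54 ± 0.10 (adjusted p = 0.00358), each with all mutant libraries above all wild-type ones. Thrsp nevertheless remained low in the mutants, at 32.0 CPM or less, below every library of the other 4 experiments except 1 floxed cholic acid liver at 21.7. Acly, the first enzyme of the chain, had 84.5, 98.1 and 94.3 CPM in wild type and 119, 117 and 74.5 in the mutants. Its groups overlapped because of mutant replicate 3, the mutant with the highest Dbp, and its change of 0.18 ± 0.17 did not pass (adjusted p = 0.43). Without that replicate Acly did pass, at 0.39 (adjusted p = 0.00712). Pnpla3 was too scarce to test: its raw counts were 3, 3 and 0 in wild type and 7, 11 and 7 in the mutants. All 7 rises passed in each of the 6 fits that left out 1 library, but in a single fit of all 26 libraries Me1 (adjusted p = 0.071) and Thrsp (adjusted p = 0.15) did not pass, which left 5.

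The genes around the pathway, in lists drawn up with earlier results known, moved as follows. The counts stand beside 40.4% of all genes tested that passed in either direction. Of 16 SREBP and ChREBP regulators, 3 rose and 2 fell. Insig1, a sterol-sensing brake on SREBP processing whose own gene SREBP switches on, rose by 2.78 ± 0.14 (38.6, 32.5 and 44.6 CPM to 243, 295 and 247; adjusted p = 2.6e-06). Pparg, a lipid storage regulator, rose by 2.03 ± 0.12 (adjusted p = 6.54e-06), and Usf2, an E-box factor, fell by 0.63 (adjusted p = 0.000435). Of 13 genes that supply citrate, acetyl-CoA and NADPH, 6 rose and 1 fell. Those with the largest rises were Pgd and Tkt of the pentose phosphate route (1.68 ± 0.12 and 0.87 ± 0.11) and Acss2, which makes acetyl-CoA from acetate (1.28 ± 0.11). Of 12 genes for sugar entry, 4 rose and 1 fell: Pklr, liver pyruvate kinase, rose by 1.35 ± 0.12, and the fructose transporter gene Slc2a5 fell by 2.75 (5.64 to 0.827 CPM).

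Other carboxylation, elongation and desaturation genes had the largest share of calls, with 12 of the 17 tested rising and 3 falling. Among all genes tested, 40.4% passed. Elovl7 rose by 3.72 ± 0.28 (0.330 to 4.44 CPM) and Fads3 by 2.35 ± 0.19 (1.80 to 9.11 CPM), both scarce in wild type. The elongase gene Elovl3 fell by 9.09 (SE 0.41; adjusted p = 1.68e-06). Elovl3 had 129 to 161 CPM in wild-type livers and raw counts of 3, 0 and 15 in the mutants, so it moved against Elovl6 in the same livers. Of 17 triglyceride assembly genes, 7 rose and 2 fell. Mogat1, a monoacylglycerol acyltransferase gene, rose by 6.17 ± 0.60 from 0.102 ± 0.177 to 8.38 ± 2.34 CPM (SD, n = 3), and the acyl-CoA synthetase genes Acsl3 and Acsl4 rose by 1.43 ± 0.15 and 1.42 ± 0.09.

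Other measures moved with this comparison, in which 40.4% of all genes tested passed. Of 14 insulin and fasting responsive genes, 6 fell and 3 rose: Pck1, the gluconeogenic enzyme that fasting raises, was at 5148, 4548 and 6388 CPM in wild type and at 1301, 1263 and 1581 in the mutants (-1.94 ± 0.16), and G6pc fell by 1.47, but Pdk4, also a fasting gene, rose by 1.41 ± 0.16. The sham livers, also labelled as freely fed, had Pck1 at 2489 to 3348 CPM. Of 6 hepatocyte markers, 4 fell (Apoa1, Apob, Hnf4a and Tat), and their sum went from 84143 to 112125 CPM in wild type to 59928 to 80369.9 in the mutants. Bile duct markers summed to 26.2 to 35.7 CPM in wild type and 54.4 to 127 in the mutants, with 4 of 5 raised, and stellate cell markers to 176 to 287 and 376 to 437, with 4 of 6 raised. Of 6 adipocyte (fat cell) markers, Adipoq, Lep and Plin1 were at 3 counts or fewer in all 6 libraries. Retn and Cfd were that low in all wild-type livers but not in all mutants. The markers summed to 10.6 to 12.7 CPM in wild type and 10.7 to 13.1 in the mutants. The clock genes Arntl and Npas2 rose by 0.79 ± 0.16 and 2.69 ± 0.33. Dbp did not pass, at -0.33 ± 0.43 (adjusted p = 0.56), and its groups overlapped. Reads with non-unique alignments made up 43.2% to 44.1% of reads in wild type and 25.5% to 26.9% in the mutants. The part of these differences in the result was not tested.

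**Figure D2:**
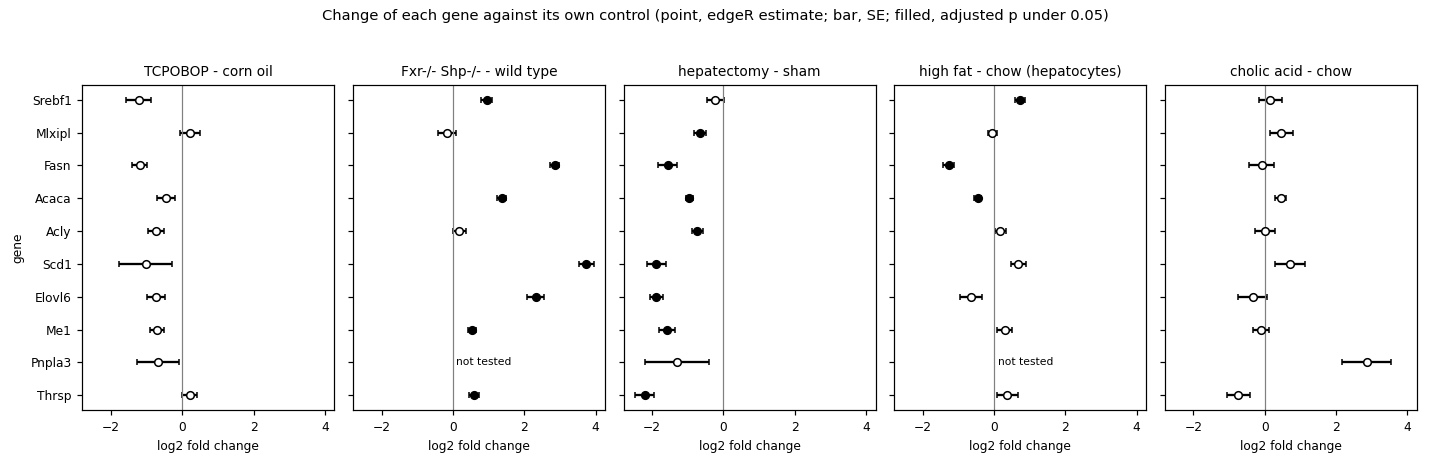
Log2 fold change of each of the 10 genes against its own control in the 5 comparisons; points are edgeR estimates, bars SE, and filled points have an adjusted p under 0.05. The 7 filled points for Fxr-/- Shp-/- lie to the right of 0 and the 8 for hepatectomy to the left.

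Partial hepatectomy came with lower RNA across the pathway. At 48 h, 8 of the 10 genes had fallen, from 1.57-fold for Mlxipl to 4.63-fold for Thrsp, and none had risen. Among all 13753 genes tested, 14.3% fell. The median change of the 10 genes was -1.43 on the log2 scale, against 0.01 over all genes.

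Thrsp had 1997, 2024 and 2299.8 CPM in sham livers and 329.8, 358 and 682 after hepatectomy. It fell by 2.21 (SE 0.27; adjusted p = 0.000687), and replicate 3 was the highest of the regenerating livers. Elovl6 went from 353, 449 and 385 CPM to 118, 125 and 78.6 and fell by 1.89 (SE 0.18; adjusted p = 0.00022). For Scd1 the sham livers had 21350.1, 13115 and 13502 CPM and the regenerating livers 5051, 2827 and 5193. It fell by 1.88 (SE 0.28; adjusted p = 0.00177), with sham replicate 1 well above the other 2. Fasn fell by 1.57 (SE 0.26; adjusted p = 0.0034), from 1576, 1372 and 1407 CPM to 283, 648 and 545. All 3 regenerating livers lay below all 3 sham livers. Me1, the NADPH source, fell by 1.58 (SE 0.22; adjusted p = 0.00151), from 432, 257 and 245 CPM to 105, 88.3 and 121.

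Acaca was the most even of the genes after surgery, at 60.6, 62.5 and 59.9 CPM against 134, 117 and 103 in sham livers. It fell by 0.95 (SE 0.10; adjusted p = 0.000373). Acly fell by 0.73 (SE 0.15; adjusted p = 0.00773), from 710.3, 529 and 477 CPM to 319, 376 and 343. All 7 of these falls passed in each of the 6 fits without 1 library. Mlxipl, at 185, 171 and 201 CPM in sham livers and 99.4, 101 and 155 after hepatectomy, fell by 0.65 (SE 0.17; adjusted p = 0.0233). Its groups did not overlap, but its call passed in only 1 of those 6 fits, the one without hepatectomy replicate 3. Srebf1 did not pass, at -0.23 ± 0.23 (adjusted p = 0.50): regenerating livers had 288, 569 and 553 CPM and sham livers 506, 573 and 562, so that only replicate 1 lay apart. Pnpla3 had 12.2, 3.29 and 5.62 CPM in sham livers and 0.517, 0.788 and 7.19 after surgery. Its change of -1.30 ± 0.89 did not pass (adjusted p = 0.30). Without hepatectomy replicate 3, the library with low Dbp, it was -3.43 and passed (adjusted p = 0.00454).

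The neighbouring lists differed in how many of their genes fell, in a comparison where 14.3% of all genes tested fell. Of 12 sugar entry genes, 9 fell and none rose: Pklr fell by 1.90 (355, 361 and 370.3 CPM to 98.3, 91.2 and 103; adjusted p = 6.46e-06), and the fructokinase gene Khk (-1.26) and the glucose transporter gene Slc2a2 (-1.05) fell with it. Of 13 supply genes, 7 fell, among them Mlycd (-0.85), Acss2 (-0.80) and the citrate carrier gene Slc25a1 (-0.58). Mlycd encodes malonyl-CoA decarboxylase, which removes the product of Acaca. Of 16 regulators, 5 fell and 1 rose, the falls including Trib1 (-0.66), Scap (-0.49) and Usf2 (-0.48). Among 17 other carboxylation, elongation and desaturation genes, 3 fell and 2 rose, with a median change of -0.04. Acacb, the carboxylase linked to fat oxidation, fell by 1.89, Elovl5 also fell (-1.01), and Elovl3 rose by 1.27 ± 0.28 (44.2 ± 8.15 to 107 ± 46.3 CPM; SD, n = 3). Of 16 triglyceride genes tested, 5 fell, among them Lpin2 (-1.77), Dgat2 (-1.12) and Acsl1 (-0.75).

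Of 14 insulin and fasting responsive genes, 9 fell and none rose in the same comparison, where 14.3% of all genes tested fell. The falls included Igfbp1 (-3.13), G6pc (-2.71) and Ppargc1a (-1.74). Igfbp1 and G6pc are genes that fasting raises. Of 6 hepatocyte markers, 3 fell, and their summed level went from 121762 to 126115 CPM in sham livers to 92535 to 104064. Their part in the fall of the lipogenic genes was not tested. Of 6 adipocyte markers, Adipoq, Lep, Retn, Plin1 and Cfd were at 3 counts or fewer in all the regenerating livers. Only Lep and Retn were that low in all sham livers. The 6 markers summed to 11.6 to 15.6 CPM in sham livers and 15.3 to 16.3 after hepatectomy. The part of fat cells was not tested.

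**Figure D3:**
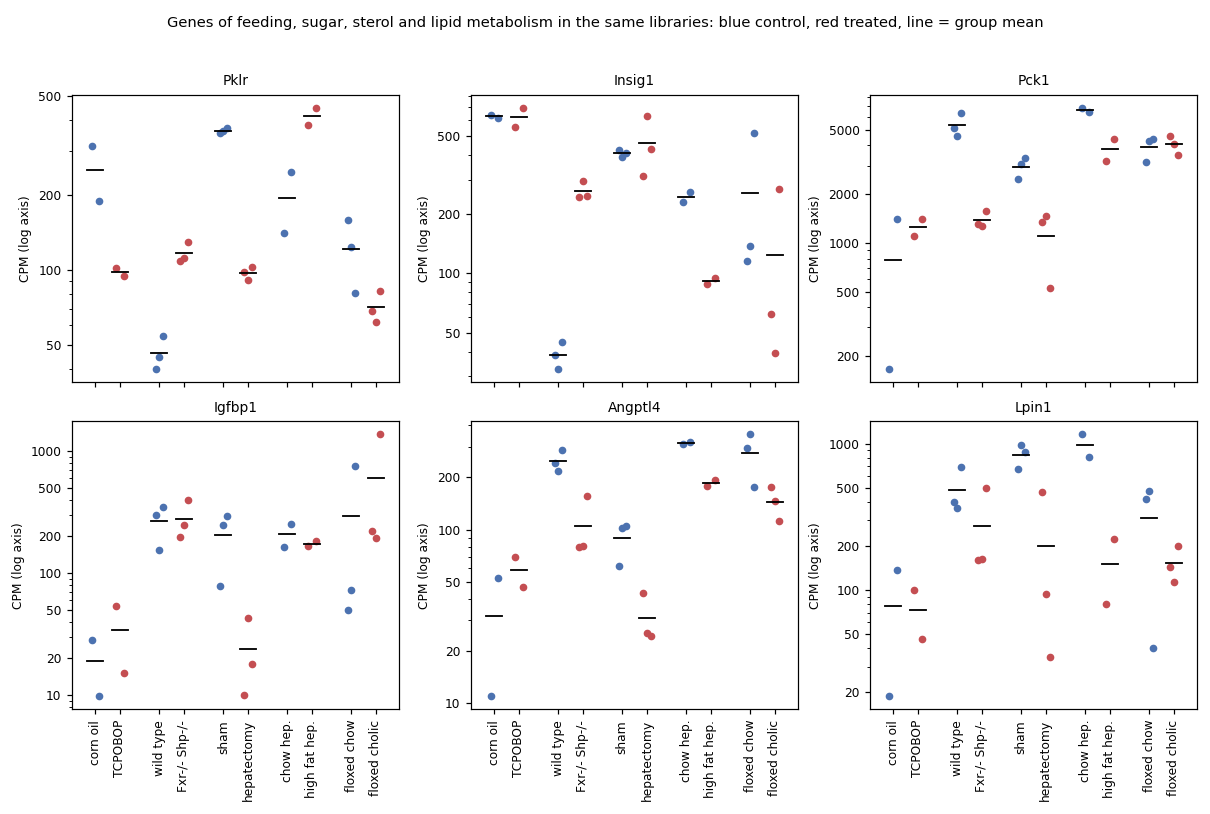
CPM (log axis) of Pklr, Insig1, Pck1, Igfbp1, Angptl4 and Lpin1 in each of 26 libraries by group; points are libraries, blue for controls and red for treated groups, and lines are group means. Pck1 lies at 4548 to 6388 CPM in wild-type livers and at 1263 to 1581 in Fxr-/- Shp-/- livers, while Igfbp1 overlaps between them.

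In hepatocytes from mice on the high fat diet, Fasn and Acaca fell and Srebf1 rose, and 6 of the 9 genes tested did not pass. In this comparison 11.1% of all 13892 genes tested fell and 12.9% rose, so that 1 rise among 9 genes is at the background share. Fasn had 225 and 304 CPM on chow and 111 and 112 on the high fat diet. It fell by 1.27 (2.42-fold; SE 0.15; adjusted p = 0.00635) and passed in all 4 fits without 1 library. Acaca fell by 0.46 (SE 0.10; adjusted p = 0.0259), from 58.4 and 68.6 CPM to 46.6 and 47.9, and lost its call in 3 of those 4 fits and in a single fit of all 26 libraries (adjusted p = 0.11). Srebf1 had 168 and 206 CPM on chow and 347 and 283 on the high fat diet. It rose by 0.72 ± 0.14 (adjusted p = 0.0207), but the call was lost without high fat replicate 1 (0.57; adjusted p = 0.068) and in the single fit (adjusted p = 0.19).

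The genes that did not pass lay on both sides of 0. Scd1 had 2287 and 2978 CPM on chow and 3504 and 5081 on the high fat diet, without overlap, and its change was 0.68 ± 0.21 (adjusted p = 0.066). It passed with DESeq2 (0.66; adjusted p = 0.00769), without the low-count filter (adjusted p = 0.0495) and without high fat replicate 1 (0.92; adjusted p = 0.0304). Elovl6 was at 55.8 and 98.2 against 39.5 and 60.8, Me1 at 68.0 and 111 against 112 and 112, and Thrsp at 108 and 196 against 168 and 233, with chow replicate 1 the lower chow sample for each. Their changes were -0.65 ± 0.31, 0.30 ± 0.22 and 0.37 ± 0.29 (adjusted p = 0.17, 0.35 and 0.39). Acly and Mlxipl had changes of 0.17 ± 0.15 and -0.05 ± 0.13, with overlapping libraries. Without chow replicate 2, Acly (0.41), Scd1 (0.87), Me1 (0.68) and Thrsp (0.86) passed as higher beside Srebf1, so that 5 were raised. Without chow replicate 1, Elovl6 passed as lower (-0.999; adjusted p = 0.0257), so that 3 were lowered. Pnpla3 was not tested, with raw counts of 0 and 2 on chow and 2 and 9 on the high fat diet.

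Around the pathway, where 11.1% of all genes tested fell and 12.9% rose, 6 of the 16 regulators fell and 1 rose. Insig1 fell by 1.44 (231 and 259 CPM to 88.4 and 95.1; adjusted p = 0.00138), and Ppargc1b, a coactivator of lipogenic factors, also fell (-1.30), while Pparg rose by 1.02 ± 0.16. Of 16 other carboxylation, elongation and desaturation genes, 5 fell and 1 rose, the falls including Elovl3 (-2.39), Acacb (-1.25) and Tecr (-0.38). The sugar entry list split into 3 rises and 3 falls: Pklr rose by 1.06 ± 0.26 and Slc2a5 by 0.67 ± 0.16, and Txnip, a ChREBP target gene whose product limits glucose uptake, fell by 1.28. Among 17 triglyceride genes, 4 rose and 3 fell, the falls including Lpin1 (-2.73; 1159.7 and 808 CPM to 79.7 and 223) and Lpin2 (-0.73), and Gpat3 rose by 1.38 ± 0.21. Of the 13 supply genes, Slc25a10 rose by 0.75 ± 0.09 and Slc25a1 (-0.45) and Idh1 (-0.36) fell. Of the 14 insulin and fasting genes, 3 fell and 1 rose, including falls of Sesn1 (-0.90) and Pck1 (-0.83) and a rise of Pdk4 by 1.03 ± 0.26. Stellate cell markers summed to 9.89 to 16.7 CPM on chow and 40.4 to 42.7 on the high fat diet, with 5 of 6 raised. All 5 endothelial markers were raised. Of the adipocyte markers, Cfd rose from 0.0358 to 2.58 CPM and Lipe from 17.1 to 28.4 CPM (adjusted p = 0.046). Adipoq, Lep, Retn and Plin1 were at 3 counts or fewer on the high fat diet. The part of these cells in the result was not tested.

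Cholic acid feeding gave no call among the 10 genes when its own 2 groups were fitted with edgeR, in a comparison where 4.77% of all 12577 genes tested passed. At an unadjusted p under 0.05 there were 2904 genes, 2 of them from the pathway, Pnpla3 and Acaca. Other fits called 1 of the 10 as raised: Pnpla3 with DESeq2 and with edgeR without the low-count filter, and Acaca in a single edgeR fit of all 26 libraries. Pnpla3 had 0, 0.408 and 0.359 CPM on chow (0, 6 and 5 raw counts) and 2.57, 1.57 and 1.67 on cholic acid (51, 29 and 35), with no overlap. Its change was 2.86 ± 0.68 (adjusted p = 0.053), DESeq2 gave 2.89 (adjusted p = 0.00143), and edgeR without the filter gave 2.88 (adjusted p = 0.0119). The chow counts of Pnpla3 were all below the filter's minimum count of 10. Pnpla3 thus entered the filtered edgeR test only through the cholic acid livers, where it was high. All of its changes in this comparison rest on chow counts near the floor. Acaca had 35.7, 31.4 and 32.6 CPM on chow and 42.0, 44.9 and 50.6 on cholic acid. All 3 treated libraries were higher, and its change of 0.45 ± 0.15 did not pass (adjusted p = 0.13). In the single fit of all 26 libraries it was also 0.45 and passed (adjusted p = 0.0277).

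Spread between livers was wide for the rest. Fasn had 172, 142 and 84.3 CPM on chow and 89.4, 100.2 and 188 on cholic acid, so that replicate 3 was the lowest of its group on chow and the highest on cholic acid. Its change was -0.08 ± 0.35 (adjusted p = 0.91). When replicate 3 was left out of both groups, a choice made after seeing the data, Fasn fell by 0.74 (adjusted p = 0.032) and Pnpla3 rose by 3.25 (adjusted p = 0.048). Scd1 had 3690.1, 6099 and 10821 CPM on chow and 16091, 6781 and 11093 on cholic acid, with a change of 0.71 ± 0.43 (adjusted p = 0.36). Thrsp had 50.2, 73.2 and 78.7 CPM against 21.7, 49.0 and 51.2, with a change of -0.74 ± 0.33 (adjusted p = 0.22). Mlxipl had 139, 135 and 55.4 CPM on chow, replicate 3 being the low one, and 142, 160.3 and 156 on cholic acid. Srebf1, Acly, Elovl6 and Me1 had overlapping groups and changes between -0.34 (Elovl6, SE 0.40) and 0.16 (Srebf1, SE 0.33).

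Floxed chow replicate 3 also stood apart in genes that respond to sterols and feeding. Insig1 was at 116, 138 and 518 CPM over the 3 chow livers, Lpin1 at 419, 477 and 39.9 and Igfbp1 at 50.2, 72.5 and 753. The part of this library in the spread of the lipogenic genes was not tested beyond leaving it out. Without it 1345 genes passed, and Pnpla3, with its chow counts near the floor, was the only one of the 10 among them (3.16; adjusted p = 0.044). The neighbouring lists had the calls below, in a comparison where 4.77% of all genes tested passed. None of 16 regulators and 1 of 12 sugar genes passed (Pfkfb1, -1.83 ± 0.18). Of 17 other elongation and desaturation genes 2 passed, Elovl3 (-3.77 ± 0.84) and Hsd17b12 (-0.87 ± 0.20). Of 13 supply genes, Tkt rose by 0.77 ± 0.16 and Mlycd fell by 0.87. Acsl1 fell by 1.15 among 16 triglyceride genes, and of 14 insulin and fasting genes 1 rose, Ppargc1a by 1.08 ± 0.18, and 1 fell. In this diet Nr0b2, the FXR target, went from 14.5, 17.1 and 18.4 CPM to 91.2, 43.6 and 61.1 and rose by 1.96 (adjusted p = 0.00982).

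TCPOBOP livers had lower values than both controls for most of the enzymes, but no change passed, and 1 of the 2 control libraries carried the CAR target gene at the treated level. No gene passed with edgeR (0 of 12785), including none of the 10; at an unadjusted p under 0.05 there were 751 genes, 5 of them from the pathway, and DESeq2 called 94 genes, of the 10 only Fasn. Both TCPOBOP libraries lay below both corn oil libraries for 6 of the 10 genes, against 17.3% of all genes tested. Fasn stood at 609.8 (corn oil 1, as labelled) and 799 CPM among controls, against 321 and 300.0 after TCPOBOP (-1.20 ± 0.21; adjusted p = 0.68). Srebf1 had 224 and 445 CPM against 138 and 151 (-1.23 ± 0.36; adjusted p = 0.81). For Scd1 the groups overlapped, at 2642 and 8839 against 4050.1 and 1666 CPM, the library labelled corn oil 1 being the low control. Acaca, Acly, Elovl6 and Me1 also lay lower in both TCPOBOP libraries, with changes of -0.45 ± 0.25, -0.73 ± 0.23, -0.74 ± 0.26 and -0.70 ± 0.19. Thrsp, at 442 and 521 against 643 and 478 CPM, Mlxipl and Pnpla3 overlapped. Adipocyte markers were present in these 4 libraries, at 23.1 to 29.7 CPM summed in corn oil and 34.6 to 44.1 in TCPOBOP livers.

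The calls turned on the control library chosen. Without the library labelled corn oil 1, Srebf1 (-1.64), Scd1 (-1.65), Fasn (-1.38), Acly (-0.92), Me1 (-0.82) and Acaca (-0.74) were lower and Mlxipl (0.60) higher at an adjusted p under 0.05, among 1233 genes that passed. Without corn oil 2, Fasn (-0.97), Elovl6 (-1.02) and Srebf1 (-0.63) were lower, among 413 genes. Fasn and Srebf1 were the 2 called lower in both fits. Either fit rests on 1 control library, which is assumed to vary like the TCPOBOP pair.

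The responses of the experiments were then compared by testing the difference itself, for 6 pairs among knockout, hepatectomy, high fat diet and cholic acid. The knockout change exceeded the hepatectomy change for 8 of 10 genes, where 15.4% of all genes tested did so. Scd1 differed by 5.63 ± 0.38 and Fasn by 4.43 ± 0.34 (log2, SE; adjusted p = 6.21e-07 and 1.42e-06), and the 2 genes without a difference were Mlxipl and Pnpla3. Against the high fat diet, the knockout change was higher for 4 of 9 genes (7.98% of all genes): Fasn by 4.13 ± 0.23, Scd1 by 3.07 ± 0.32, Elovl6 by 2.98 ± 0.45 and Acaca by 1.83 ± 0.17. Srebf1 did not pass there, at 0.24 ± 0.23 (adjusted p = 0.52). Against cholic acid it was higher for 5 of 10 (7.18%), those 4 genes and Thrsp. Scd1 differed by 3.04 ± 0.53 there (adjusted p = 0.00268).

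The hepatectomy change lay below the high fat change for 6 of 10 genes (15.3% of all genes), with differences of -2.61 ± 0.46 for Thrsp and -2.58 ± 0.43 for Scd1. Fasn did not pass, at -0.31 ± 0.38 (adjusted p = 0.58). Against cholic acid the hepatectomy change was lower for 3 of 10 genes (5.01%), Scd1, Me1 and Acaca. High fat diet and cholic acid differed for 1 of 10 genes (2.68% lower), Acaca, by -0.89 ± 0.20 (adjusted p = 0.0304). Fasn differed by -1.17 ± 0.50 in that pair and did not pass (adjusted p = 0.17).

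**Figure D4:**
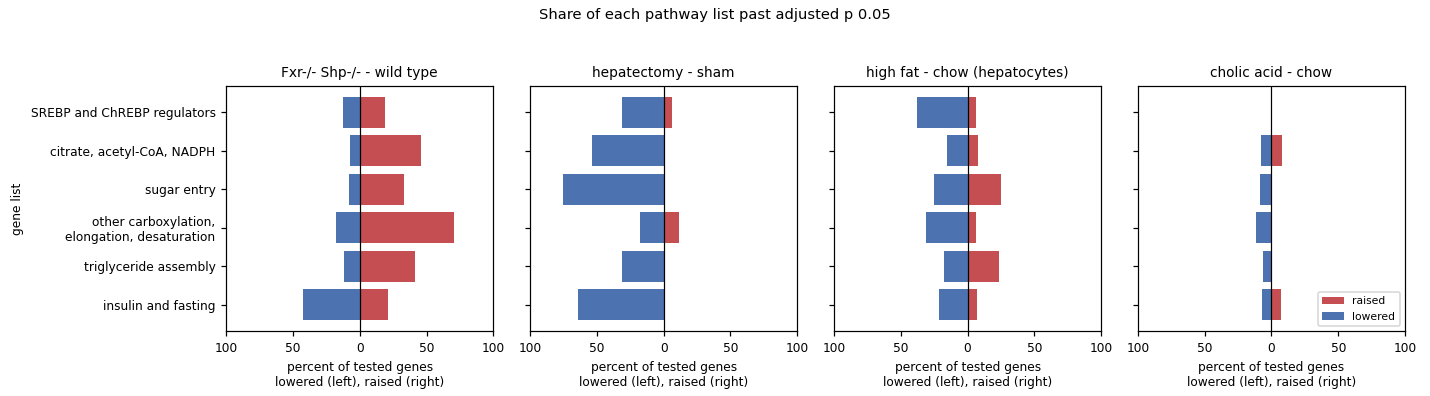
Percent of the tested genes of 6 neighbouring lists that rose (right, red) or fell (left, blue) at an adjusted p under 0.05 in 4 comparisons. The list of other carboxylation, elongation and desaturation genes has 12 of 17 raised in Fxr-/- Shp-/- livers, and sugar entry 9 of 12 lowered after hepatectomy. Among all genes tested, 40.4% passed in either direction in Fxr-/- Shp-/- livers and 14.3% fell after hepatectomy.

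Across the 26 libraries, each taken as log2 CPM minus the mean of its own control group, the 10 genes moved together to different degrees. The 45 pairwise Pearson correlations ran from -0.10 to 0.93 with a median of 0.58. Fasn and Acaca had the highest (0.93), followed by Acaca with Scd1 (0.89), and Mlxipl had the lowest, at -0.10 with Srebf1, 0.08 with Elovl6 and 0.10 with Scd1. These values are descriptive, since libraries of a group share their condition. Among 10546 genes, the 5 others whose pattern was closest to the mean of the 10 were Cd74 (r = 0.93), Tmbim6 (0.92), H2-Aa (0.91), H2-Ab1 (0.91) and Bche (0.89). Cd74, H2-Aa and H2-Ab1 encode the MHC class II complex of antigen-presenting cells. Cd74 went from 22.1 to 68.0 CPM with loss of FXR and SHP and from 23.5 to 6.61 after hepatectomy. Of the 9 genes abundant enough to be ranked, all but Pnpla3, Scd1 (0.93) and Acaca (0.92) followed the mean most closely and Mlxipl least (0.34); each is itself part of that mean.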

How the data were processed

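Per the labels' protocols, RNA was purified on RNeasy columns and sequenced from TruSeq Stranded mRNA libraries. The submitters' processing notes name bcl2fastq 2.17.1.14, Trimmomatic, STAR 2.4.2a, Picard 1.119 and HTSeq with GRCm38/mm10; annotation and strand setting are not given in the sources used here. The authors deposited raw read counts per gene, and 5 summary lines (23.0% to 48.6% of all reads) were left out. Of 47643 identifiers, 47224 matched a symbol. Exons of 5 members overlap another gene's (Pnpla3 most, 6.78%).

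Each comparison was fitted on its own 2 groups with edgeR 4.0.16 (R 4.3.3; quasi-likelihood test, filterByExpr with a minimum count of 10, TMM) and adjusted by Benjamini-Hochberg over all genes tested; differences between changes were contrasts over 4 groups. The fit code was also run on simulated counts with a fixed spread, which did not mimic the libraries that stood apart here. CPM use TMM factors over all 26 libraries. Alternatives included DESeq2 1.42.0. Genes named were all members and, per list and comparison, up to 3 called genes with mean log2 CPM of at least 1 and the largest change, of which some are not reported here. Members and lists were chosen with earlier results of these data known. Samples with the same replicate number in the 2 cholic acid groups had correlations of 0.103 to 0.155 over 3 pairs, but the labels state no pairing.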

Additional observations from a re-analysis of the deposited data

Results flagged for a closer look

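Changes that differed between 2 experiments, by a test of the difference itself over 4 groups (edgeR, adjusted p under 0.05), were as follows, in log2 units. The Fxr-/- Shp-/- change minus the hepatectomy change was 1.19 for Srebf1, 4.43 for Fasn, 2.33 for Acaca, 0.93 for Acly, 5.63 for Scd1, 4.22 for Elovl6, 2.13 for Me1 and 2.82 for Thrsp. The Fxr-/- Shp-/- change minus the high fat diet change was 4.13 for Fasn, 1.83 for Acaca, 3.07 for Scd1 and 2.98 for Elovl6. Minus the cholic acid change, it was 2.94 for Fasn, 0.92 for Acaca, 3.04 for Scd1, 2.67 for Elovl6 and 1.35 for Thrsp. The hepatectomy change minus the high fat diet change was -0.52 for Acaca, -0.92 for Acly, -2.58 for Scd1, -1.26 for Elovl6, -1.90 for Me1 and -2.61 for Thrsp. Minus the cholic acid change, it was -1.40 for Acaca, -2.59 for Scd1 and -1.47 for Me1. The high fat diet change minus the cholic acid change was -0.89 for Acaca. The experiments also differ in strain, age, feeding and tissue, which cannot be told apart from the treatments in these differences.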

How the results depend on the processing

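No change of any of the 10 genes that had passed turned its direction under an alternative. DESeq2, a single fit of all 26 libraries and the fit without a low-count filter moved these counts by over 1.5 times. For TCPOBOP, genes called were 94 with DESeq2 and 9 in the single fit, with 1 gene of the 10 lowered with DESeq2; leaving out 1 library gave 0 to 1233 genes, 0 to 1 raised and 0 to 6 lowered of the 10. For hepatectomy, leaving out 1 library gave 2554 to 4217 genes called, the lowest without sham replicate 2 and 2575 without sham replicate 3. For the high fat diet, the single fit called 1735 genes, and genes of the 10 raised were 2 with DESeq2, 0 in the single fit and 2 without a filter, with 1 lowered in the single fit; leaving out 1 library gave 1141 to 2644 genes (1141 and 1793 without high fat replicates 1 and 2), 1 to 5 raised and 1 to 3 lowered. With the replicate block, 3 of the 10 were raised (Srebf1, Scd1 and Thrsp), and Elovl6 passed as lower (-0.62; adjusted p = 0.0066). For cholic acid, genes called were 1367 with DESeq2, 3132 in the single fit, 955 without a filter and 1260 without replicate 3 of both groups; 1 of the 10 was raised in each of these 4, and 1 was lowered without replicate 3 of both groups. Leaving out 1 library gave 189 to 1345 genes and 0 to 1 raised. Differences of hepatectomy from the high fat diet numbered 3 in the single fit, and from cholic acid 8 with DESeq2, 7 in the single fit and 8 without a filter. In the single fit Me1 (0.52; adjusted p = 0.071) and Thrsp (0.58; adjusted p = 0.15) of the knockout comparison and Mlxipl after hepatectomy (-0.65; adjusted p = 0.11) no longer passed.

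Replicate numbers were also used as a replicate block. In the cholic acid groups, 0 of the 10 genes passed with the block. Same-number correlations were 0.103 to 0.155 there and -0.18 to 0.10 in the other comparisons. The labels number the samples within each group and state no pairing. Pnpla3 had too few counts to be tested in the knockout and high fat diet comparisons.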
